A study of Mus musculus with 20 samples.

Results

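Collagens are the main structural proteins of the extracellular matrix. The genes described here are all those in the deposited mouse lung expression table whose symbol has the form Col, a number, a and a number, with at least 10 counts summed over the 20 libraries. There were 44 such genes among the 24054 in the table, and no matching gene was lost to the count minimum. By the structure of their products they comprised 11 fibrillar collagens, 6 chains of type IV (the basement membrane collagen) and 27 others. The others were 6 type VI chains, 9 fibril-associated collagens with interrupted helices (FACITs), 4 transmembrane collagens, 3 short-chain network collagens, 2 multiplexins, the anchoring fibril collagen Col7a1, and Col26a1 and Col28a1.

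Whole lungs of female C57Bl6 mice were sequenced in 4 groups with 5 biological replicates in each. Wild-type mice received either saline or an extract of house dust mite (HDM), an allergen source that inflames the airways, and mice labelled as lacking the lipoxygenase gene Alox15 received the same 2 treatments. HDM was given daily into the nose for 14 days; all animals share strain, sex and tissue, and the age and the design of the Alox15 allele are not given in the sources used here. Alox15, the targeted gene, went against the labels: in CPM, the count relative to a library's total, it ran from 38.4 to 44.7 in the libraries labelled knockout with saline and between 35.0 and 45.5 CPM in those labelled knockout with HDM, above every wild-type library (0.825 to 11.1 CPM with saline, 7.92 to 29.8 CPM with HDM). These libraries are therefore called knockout-labelled throughout, and no direction is attributed to loss of the gene. Libraries held 12573113 to 23305673 expected counts, of which collagen genes took 0.509% to 1.06%, and log2 CPM correlated at 0.942 to 0.991 between replicates.

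Collagen chains assemble into helices inside the cell, are trimmed and cross-linked outside it, and form different scaffolds by class. Fibrillar collagens (types I, III, V and their relatives) make the tension-bearing fibres of the interstitium, airway wall and vessels, and are deposited in excess in fibrosis. Type IV forms the sheet-like network beneath epithelium and endothelium, type VI forms beaded filaments around cells, FACITs decorate fibril surfaces, and transmembrane collagens sit in the plasma membrane.

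The stretches of 150 bases upstream of the start of 4 collagen genes are shown because these genes stand for the main patterns in the data: Col3a1 and Col1a2 for fibrillar chains that rose, Col24a1 for the collagen that changed most, and Col4a6 for the only type IV chain that fell. They are reference sequence from RefSeq for build GRCm38.p6 (chr1:45311388-45311537, chr6:4505468-4505617 and chr3:145292322-145292471 on the plus strand, chrX:141474077-141474226 on the minus strand), written 5′ to 3′ along the gene. Capitals mark matches on either strand to the motif CCAAT, to the motif TATAA and to the motif GGGCGG.
Col3a1: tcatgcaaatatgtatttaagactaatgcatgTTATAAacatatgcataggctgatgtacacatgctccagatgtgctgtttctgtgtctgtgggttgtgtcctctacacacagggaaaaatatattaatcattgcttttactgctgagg
Col1a2: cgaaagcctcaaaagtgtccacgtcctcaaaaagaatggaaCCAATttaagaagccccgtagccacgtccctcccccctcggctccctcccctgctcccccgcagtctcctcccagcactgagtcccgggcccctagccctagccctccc
Col24a1: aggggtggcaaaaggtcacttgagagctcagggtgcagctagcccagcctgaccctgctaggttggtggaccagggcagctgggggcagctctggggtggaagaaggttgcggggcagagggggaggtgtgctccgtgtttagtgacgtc
Col4a6: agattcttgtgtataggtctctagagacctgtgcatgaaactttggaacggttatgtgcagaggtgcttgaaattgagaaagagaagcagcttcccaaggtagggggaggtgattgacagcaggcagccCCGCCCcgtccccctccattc

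In Col3a1 the capitals join 2 overlapping TATAA matches, from base -117 to -113 on the gene's strand and from -118 to -114 on the opposite strand, counted from the annotated start as base 0. The Col1a2 match is CCAAT at -109 to -105, and the Col4a6 match is GGGCGG on the opposite strand at -21 to -16. The Col24a1 stretch held none of the 3 motifs. The RefSeq table held windows of 250 bases before to 50 after the start for 35 of the 44 collagen genes, 38 windows in all. CCAAT occurred in 34.2% of these against 37.4% of all 32851 promoter windows, TATAA in 18.4% against 24.9%, and GGGCGG in 60.5% against 35.7%. A match is a string of letters and not evidence of a bound factor.

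Per kilobase of transcript, Col3a1 was the most abundant collagen transcript, with a mean of 223 CPM per kb over the 20 libraries. It was followed by Col4a1 at 188, Col4a2 at 142, Col1a2 at 123 and Col1a1 at 88.0 CPM per kb. The next were the type VI chains Col6a1 (84.6 CPM per kb) and Col6a2 (64.0 CPM per kb), and Col4a3 at 49.5 CPM per kb. The scale fell to 0.0160 CPM per kb for Col9a1. Of the 44 genes, 40 passed the filter on low counts and were tested. The 4 that did not were Col2a1, Col11a1, Col9a1 and Col9a2, all known from cartilage. Wild-type saline library 2 held 157 counts of Col2a1 and 123 of Col11a1, against at most 31 and 35 in any other library. The same library had the highest levels of the cartilage markers Acan (22.1 CPM) and Comp (5.59 CPM) and of the network collagen Col10a1 (36.5 CPM, against at most 9.16 CPM elsewhere). The summed level of 10 cartilage markers was highest there too, at 98.1 CPM against at most 72.1 CPM elsewhere. Among these markers Matn4 (33.3 CPM) and Sox9 (3.78 CPM) were not highest in this library.

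HDM raised several fibrillar collagens in both genotypes, with Col24a1 far ahead, and left most of the basement membrane chains uncalled. In wild-type mice 11 of 40 tested collagens changed at an adjusted p under 0.05 (edgeR quasi-likelihood test, Benjamini-Hochberg over all genes), 6 higher and 5 lower. That is 27.5% of the collagens, beside 30.0% of all 16193 genes tested (13.6% higher, 16.5% lower). In knockout-labelled mice 20 of 40 changed, 13 higher and 7 lower, which is 50% of the collagens beside 51.9% of all genes (26.2% higher, 25.7% lower). As a family at these settings, then, collagens were called about as often as the rest of the transcriptome, and the pattern lay in the classes. Other settings moved this balance. Counting only changes of at least 1.5-fold, 9 and 17 of 40 collagens were called, beside 14.5% and 28.8% of all genes. With the 10 compared libraries fitted alone, 11 of 38 and 26 of 37 were called, beside 19.0% and 58.7%. In whole lung, fewer cells of a type and less RNA per cell cannot be told apart.

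The fibrillar class had 3 of 9 tested genes higher and 0 lower in wild type, and 6 of 9 higher and 0 lower in knockout-labelled mice. Its median log2 change was 0.32 in wild type and 1.17 in knockout-labelled mice, beside -0.02 and 0.02 over all genes. The type IV median was -0.19 and -0.30, and the median of the other collagens was 0.01 and 0.39. The plot of log2 changes by class shows every fibrillar point to the right of every type IV point in knockout-labelled mice (lowest fibrillar Col27a1 at 0.36, highest type IV Col4a1 at 0.20). In wild type the classes interleaved, with Col27a1 at -0.09 and Col4a1 at 0.02.

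**Figure D1:**
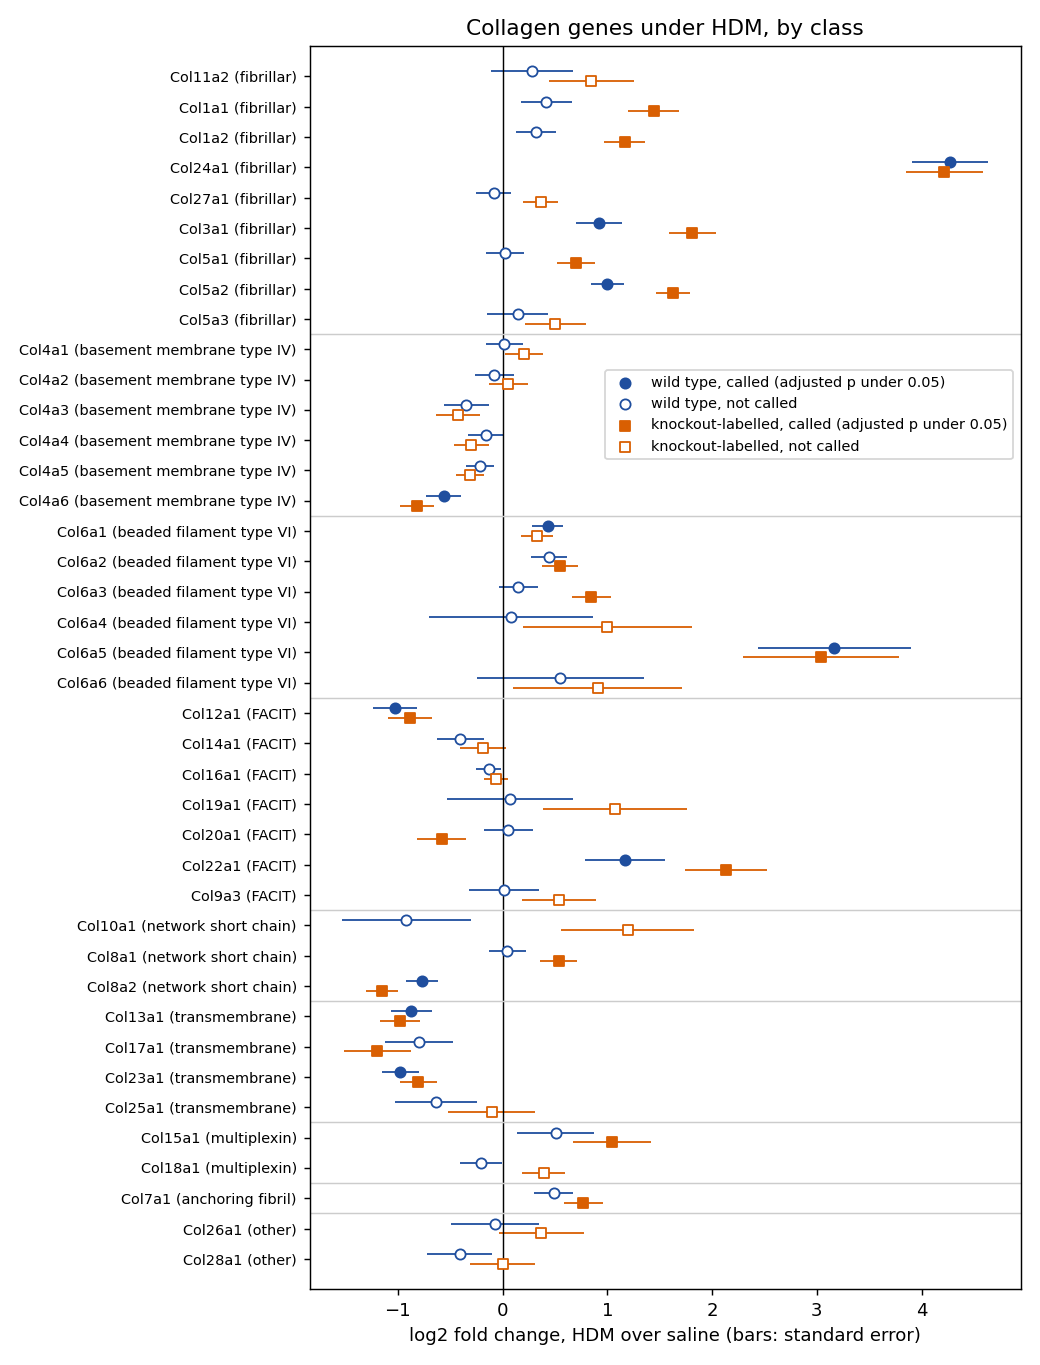
Log2 fold change of HDM over saline with its standard error for the 40 tested collagen genes, ordered by class, in wild-type (blue circles) and knockout-labelled mice (orange squares); filled symbols have an adjusted p under 0.05. Col24a1 lies at 4.27 and 4.22, while Col4a6 is the only type IV chain with filled symbols.

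Col3a1, the type III chain that forms extensible fibres with type I in lung and vessels, measured 619.6, 1228, 1050, 593 and 665 CPM in wild-type saline libraries 1 to 5 and 1388, 1849, 1774, 1394 and 1470 CPM with HDM. Knockout-labelled libraries held 655, 362, 694, 442 and 674 CPM with saline and 1415, 2073, 2302, 2210 and 1912 CPM with HDM. The saline and HDM groups did not overlap in either genotype. Of all genes tested, 5.93% in wild type and 22.1% in knockout-labelled mice were higher without overlap. The fitted rise was 1.90-fold in wild type (log2 change 0.92 ± 0.22 SE, edgeR adjusted p = 0.00381) and 3.51-fold in knockout-labelled mice (1.81 ± 0.22, edgeR adjusted p = 2.64e-06).

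Col1a1 and Col1a2 encode the chains of type I, the bulk collagen of interstitial fibres. Col1a1 measured 258, 664, 546, 296 and 345 CPM in wild-type saline libraries and 456, 678, 581, 533 and 568 CPM with HDM, ranges that overlap because saline libraries 2 and 3 were high. Among knockout-labelled libraries the levels were 388, 235, 298, 239 and 322 CPM with saline and 467, 869, 928, 1019 and 747 CPM with HDM, without overlap. The change in wild type was 1.34-fold (log2 0.42 ± 0.24) and was not called (edgeR adjusted p = 0.202). It was called, at log2 0.64 and an edgeR adjusted p of 0.0464, when wild-type saline library 2, the library with the cartilage transcripts, was left out. In knockout-labelled mice Col1a1 rose 2.72-fold (log2 1.44 ± 0.24, edgeR adjusted p = 7.77e-05).

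Col1a2 followed Col1a1 closely. Its levels were 385, 830.3, 703, 432 and 490.1 CPM (wild type, saline), 587, 812, 737, 676 and 729 CPM (wild type, HDM), 489, 362, 444, 358 and 443 CPM (knockout-labelled, saline) and 616, 987, 1075, 1147 and 888 CPM (knockout-labelled, HDM). The groups overlapped in wild type, where the change was 0.32 ± 0.19 on the log2 scale and not called. They did not overlap in knockout-labelled mice, where Col1a2 rose 2.25-fold (edgeR adjusted p = 6.47e-05). Across the 20 libraries the log2 levels of both type I chains correlated at r = 0.998, and at 0.994 after each group's mean was removed. These libraries share depth and tissue make-up, so the value is only a description.

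Type V chains nucleate and set the width of type I fibrils, and the chains Col5a1 and Col5a2 diverged. Col5a2 measured 132, 169, 146, 97.1 and 118 CPM in wild-type saline libraries and 235, 293, 307, 225 and 264 CPM with HDM, and 116, 74.8, 108, 97.1 and 119 CPM against 234, 321, 371, 376 and 282 CPM in knockout-labelled mice. No HDM library fell into its saline range, and the rise was 2.00-fold in wild type (edgeR adjusted p = 0.00015) and 3.08-fold in knockout-labelled mice (edgeR adjusted p = 2.34e-07). Col5a1 measured 97.7, 163, 138, 87.4 and 102 CPM with saline and 95.1, 133, 126, 117 and 127 CPM with HDM in wild type, fully overlapping (log2 0.02 ± 0.18). In knockout-labelled mice it measured 122, 77.1, 79.9, 86.5 and 96.2 CPM with saline and 95.5, 169, 176, 169.6 and 141 CPM with HDM. There it rose 1.63-fold (edgeR adjusted p = 0.00313), although HDM library 1 stayed inside the saline range. Per kilobase, the Col5a2 to Col5a1 ratio was 1.45 ± 0.16 (SD, n = 5) with saline and 2.82 ± 0.30 with HDM in wild type, and 1.43 ± 0.22 and 2.71 ± 0.27 in knockout-labelled mice, with no overlap in either genotype.

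Col5a3, the remaining type V chain, was not called in either genotype. It measured 12.4, 20.9, 17.2, 12.2 and 8.81 CPM with saline and 8.52, 28.8, 12.1, 18.1 and 11.3 CPM with HDM in wild type. Knockout-labelled libraries held 9.95, 7.56, 7.08, 8.17 and 10.9 CPM with saline and 7.36, 10.8, 13.8, 13.9 and 15.9 CPM with HDM. All of these ranges overlapped. Col11a2 (log2 0.28 and 0.85) and Col27a1 (-0.09 and 0.36), both better known from cartilage, were also not called in wild type or knockout-labelled mice.

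Col24a1, a fibrillar chain best known from developing bone and cornea, was nearly silent with saline and clearly present after HDM. It measured 0.761, 0.673, 0.903, 0.690 and 0.471 CPM (10 to 17 counts a library) in wild-type saline libraries and 14.1, 10.9, 22.7, 12.0 and 8.26 CPM (167 to 292 counts) with HDM. Levels in knockout-labelled libraries were 0.718, 0.188, 0.484, 0.869 and 0.137 CPM with saline and 6.72, 8.91, 8.07, 9.59 and 12.0 CPM with HDM. Every HDM library was above every saline library. The rise was 19.3-fold in wild type (log2 4.27 ± 0.36, edgeR adjusted p = 1.95e-07) and 18.6-fold in knockout-labelled mice (4.22 ± 0.37, edgeR adjusted p = 5.69e-08), the largest change of any tested collagen in both. Even so, Col24a1 remained a minor collagen, with a mean of 0.834 CPM per kb over all libraries.

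**Figure D2:**
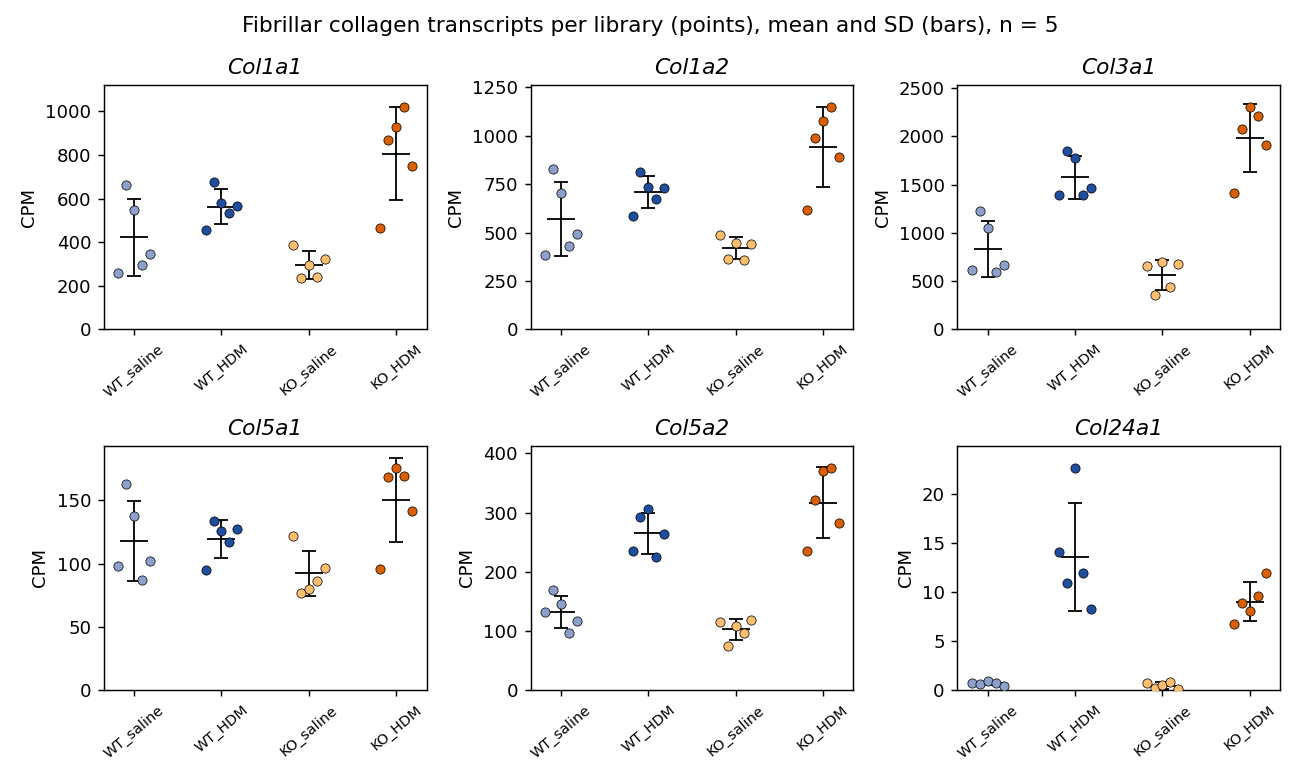
Level in CPM of 6 fibrillar collagen genes in each library (points) by group, with the mean and SD of 5 libraries (bars); each panel has its own axis from 0. Col3a1, Col5a2 and Col24a1 separate saline from HDM in both genotypes, while Col1a1 and Col1a2 do so only in the knockout-labelled libraries, and Col5a1 overlaps in both.

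The fibroblast markers that were called were mostly lower. The summed level of 9 fibroblast markers, all detected, was 3967 to 5329 CPM in wild-type saline libraries and 1803 to 3472 CPM with HDM, and 4576 to 5407 CPM against 1564 to 2133 CPM in knockout-labelled mice. Of these, 5 fell in each genotype (Pdgfra, Tcf21, Gsn, Npnt and Ces1d) and Mfap5 rose in the knockout-labelled mice. Among all genes, 16.5% were called lower in wild type and 25.7% in knockout-labelled mice. Of 7 smooth muscle and myofibroblast markers, 2 fell in wild type and 0 were called in knockout-labelled mice. Their summed level was 524 to 2070 CPM with saline and 433 to 689.5 CPM with HDM in wild type. Wild-type saline library 2 held the 2070 CPM, and the next in its group was library 4 at 752 CPM. In knockout-labelled mice the sums were 466 to 707 CPM with saline and 308 to 850 CPM with HDM. The part of these cell markers in the collagen values was not tested.

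The type IV chains gave another picture. Col4a1 and Col4a2 form the network found in nearly all basement membranes, and their levels did not pass the test in either genotype. Col4a1 measured 951, 1128, 1410, 893 and 1395 CPM with saline and 1133, 1135, 1029, 996 and 1545 CPM with HDM in wild type, and 1382, 1168, 1244, 1104 and 1260 CPM against 1046, 1536, 1801, 1724 and 991 CPM in knockout-labelled mice. The ranges overlapped, with log2 changes of 0.02 ± 0.18 and 0.20 ± 0.18. Col4a2 measured 751, 847, 1120, 713 and 1104 CPM against 862, 782, 732, 713 and 1211 CPM in wild type, and 1031, 888, 967, 827 and 932 CPM against 702, 1122, 1224, 1101 and 678 CPM in knockout-labelled mice (log2 changes -0.08 ± 0.18 and 0.06 ± 0.18). The genes lie head to head on chromosome 8, with RefSeq starts 21 bases apart, and their log2 levels correlated at r = 0.983 over the 20 libraries after group means were removed.

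Col4a3, Col4a4 and Col4a5 build the network of the alveolar and glomerular basement membranes, the one affected in Alport syndrome. All 3 had values below 0 in both comparisons, and none was called. Col4a3 measured 534, 400.4, 562, 364 and 621 CPM with saline and 419.5, 280.2, 343, 297 and 612 CPM with HDM in wild type, and 505, 436, 449, 431 and 496 CPM against 264, 433, 456, 339 and 234 CPM in knockout-labelled mice (log2 changes -0.35 ± 0.21 and -0.42 ± 0.21, edgeR adjusted p = 0.234 and 0.102). Col4a4 measured 286, 218, 279.5, 165 and 289.9 CPM against 209, 177, 248, 178 and 294 CPM in wild type, and 265, 211, 219, 220.4 and 238 CPM against 154, 219, 236, 186 and 144 CPM in knockout-labelled mice. Col4a5 measured 178, 159.5, 194, 137 and 186 CPM against 133, 129, 160.5, 116 and 196 CPM in wild type, and 171, 178, 206, 156 and 184 CPM against 126, 156, 178, 137 and 126 CPM in knockout-labelled mice. Saline and HDM overlapped for all 3. Some of these results depended on single libraries or on settings. Col4a3 was called lower in wild type without HDM library 5 (log2 -0.53, edgeR adjusted p = 0.0381). In knockout-labelled mice Col4a3 (-0.55, edgeR adjusted p = 0.0482) and Col4a5 (-0.39, edgeR adjusted p = 0.0238) were called lower without HDM library 3. Both were also called lower there with the 10 compared libraries fitted alone (edgeR adjusted p = 0.0491 and 0.0267). Col4a5 was called lower there with upper-quartile scaling (edgeR adjusted p = 0.045) and with the replicate block (edgeR adjusted p = 0.023) as well. The summed level of 7 alveolar type 1 cell markers was 3455 to 5755 CPM with saline and 2123 to 4088 CPM with HDM in wild type, and 4772 to 5495 CPM against 1853 to 3386 CPM in knockout-labelled mice, with 4 and 6 of the 7 lower. The shares of all genes called lower were 16.5% in wild type and 25.7% in knockout-labelled mice. All 7 endothelial markers fell in both genotypes. Their part in the type IV values was not tested.

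Col4a6, which shares a chromosome X neighbourhood with Col4a5 (RefSeq starts 1343 bases apart) and is known from smooth muscle and bronchial basement membranes, was the only type IV chain called. It measured 36.0, 40.9, 36.1, 37.4 and 26.7 CPM with saline and 15.8, 25.9, 25.9, 23.0 and 29.2 CPM with HDM in wild type, where only saline library 5 fell within the HDM range. Levels in knockout-labelled libraries were 44.3, 45.4, 47.8, 38.3 and 45.0 CPM with saline and 21.7, 24.8, 26.1, 17.7 and 35.2 CPM with HDM, without overlap. It fell 1.48-fold in wild type (log2 -0.56 ± 0.16, edgeR adjusted p = 0.0149) and 1.76-fold in knockout-labelled mice (-0.81 ± 0.16, edgeR adjusted p = 0.000408). The wild-type call was lost without wild-type HDM library 1 (edgeR adjusted p = 0.059) and without the 5 adipose-rich libraries described later (edgeR adjusted p = 0.0876). Col4a5 and Col4a6 correlated at only 0.182 across libraries after group means were removed.

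**Figure D3:**
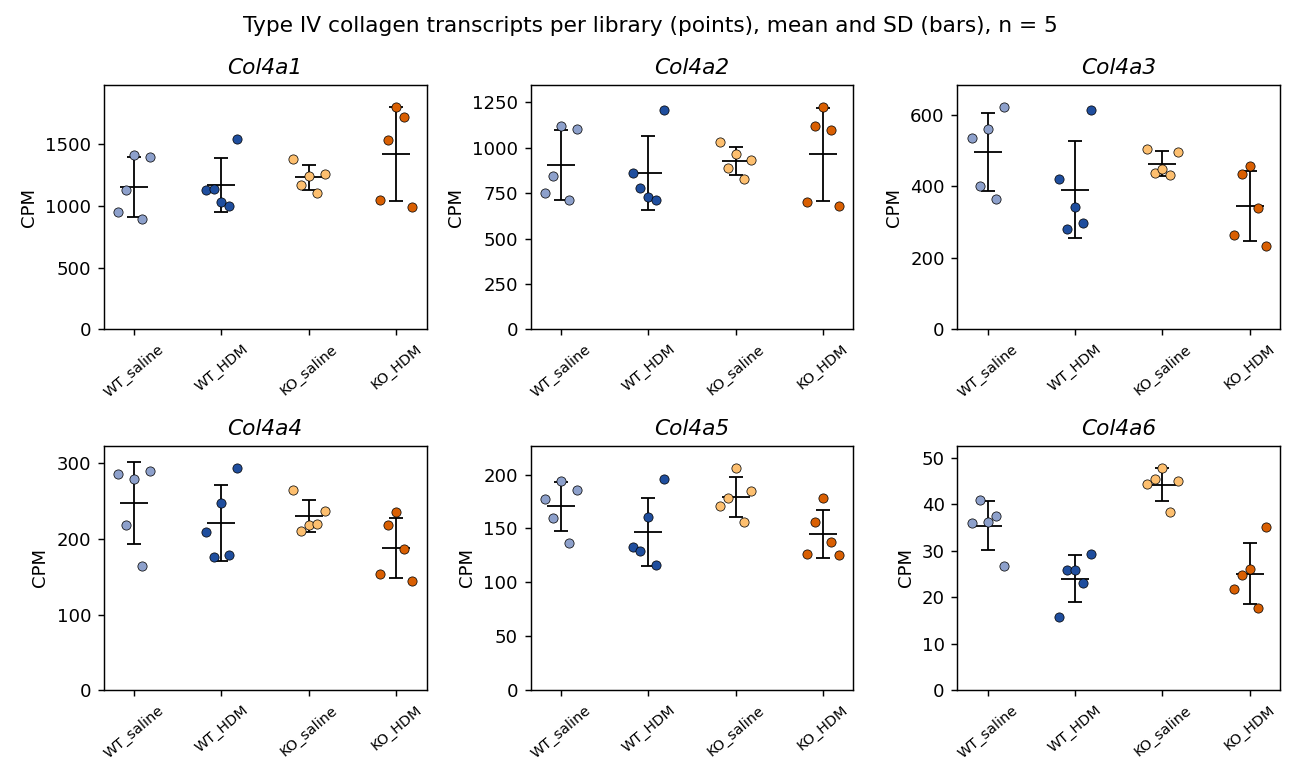
Level in CPM of the 6 type IV collagen genes in each library (points) by group, with the mean and SD of 5 libraries (bars); each panel has its own axis from 0. Only Col4a6 is lower with HDM in the test, from 35.4 to 24.0 CPM in wild type and from 44.2 to 25.1 CPM in knockout-labelled mice. Its saline and HDM libraries overlap in wild type and not in knockout-labelled mice. The other 5 chains overlap in both.

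Per kilobase, fibrillar genes made up 33.5% ± 5.56 (SD, n = 5) of the collagen signal with saline and 44.9% ± 4.99 with HDM in wild type, and 26.9% ± 2.57 and 49.4% ± 2.64 in knockout-labelled mice. The type IV share went from 40.4% ± 6.10 to 31.4% ± 4.43 and from 46.1% ± 2.06 to 29.8% ± 3.30, and the remaining collagens from 26.1% ± 1.2 to 23.7% ± 0.949 and from 27.0% ± 0.577 to 20.8% ± 2.27. In knockout-labelled mice the fibrillar range with HDM (47.2% to 52.5%) lay wholly above that with saline (23.0% to 28.9%). In wild type the ranges met, since saline library 2 had 42.3% and HDM libraries 1 and 5 had 41.5% and 38.1%. Shares within a whole move against each other, so a lower type IV share is not a lower type IV level. Within the fibrillar class the Col3a1 to Col1a1 ratio per kilobase was 2.16 ± 0.24 with saline and 2.99 ± 0.24 with HDM in wild type, and 2.02 ± 0.34 and 2.69 ± 0.34 in knockout-labelled mice. The ranges of this ratio did not overlap in wild type. They overlapped in knockout-labelled mice (1.642 to 2.485 with saline, 2.311 to 3.228 with HDM). Within type IV the Col4a1 to Col4a3 ratio was 3.05 ± 0.50 and 4.04 ± 0.78 in wild type, overlapping, and 3.44 ± 0.14 and 5.38 ± 0.74 in knockout-labelled mice, without overlap.

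**Figure D4:**
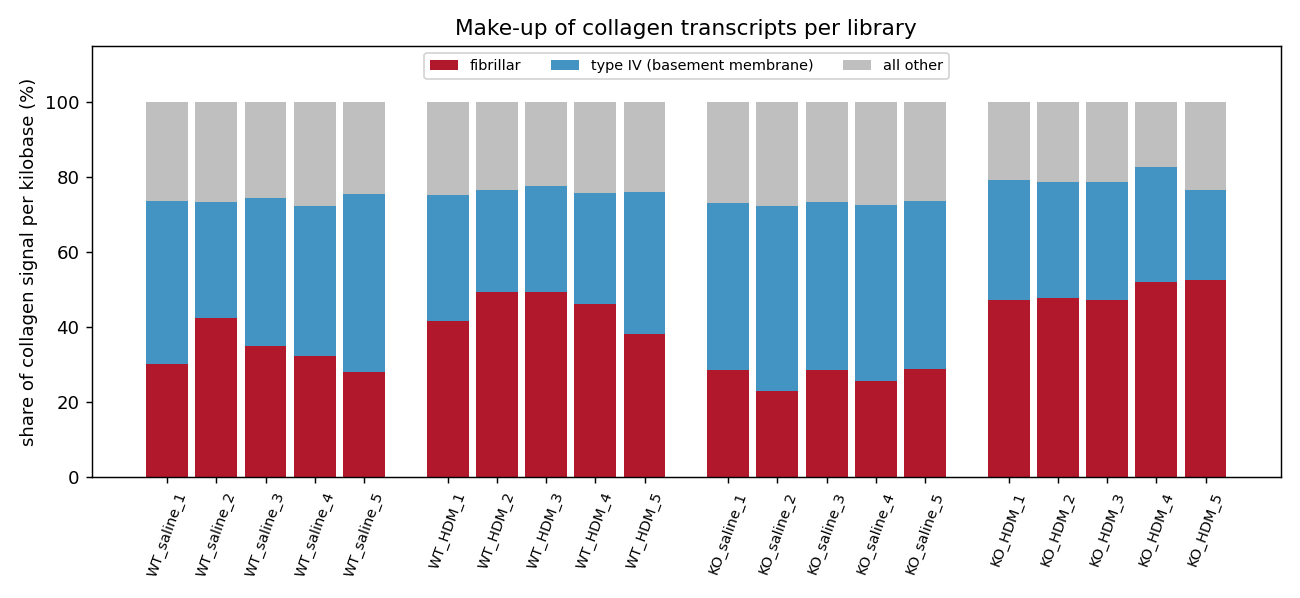
Share of the length-scaled collagen signal (CPM per kilobase, in percent) taken by fibrillar, type IV and all other collagens in each of the 20 libraries. Fibrillar genes take 47.2% to 52.5% in knockout-labelled HDM libraries and 23.0% to 28.9% in knockout-labelled saline libraries.

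Among the type VI collagens, Col6a1, Col6a2 and Col6a3 form the common heterotrimer and moved modestly. Col6a1 rose in wild type (1.35-fold, edgeR adjusted p = 0.0379), with 242 to 375 CPM against 347 to 482 CPM. That call was lost without any of saline libraries 1, 4 and 5 or HDM library 5 (edgeR adjusted p from 0.0523 to 0.0834) and without the adipose-rich libraries (0.143). It was also lost when the 10 compared libraries were fitted alone. Col6a2 (log2 0.55) and Col6a3 (log2 0.85) rose in knockout-labelled mice. Col6a5, a chain of restricted distribution, changed most in this group. It measured 1.90, 8.34, 3.77, 9.89 and 2.78 CPM with saline and 53.5, 79.4, 46.5, 36.8 and 25.0 CPM with HDM in wild type, without overlap (8.97-fold, log2 3.16 ± 0.73, edgeR adjusted p = 0.00364). In knockout-labelled mice it measured 1.24, 1.03, 1.32, 2.78 and 6.83 CPM with saline and 8.38, 13.4, 10.1, 5.51 and 71.6 CPM with HDM. There HDM library 5 stood far above the other 4, and saline library 5 overlapped the HDM range. That HDM library is among the adipose-rich libraries described later. So are wild-type saline libraries 2 and 4, which held the most Col6a5 of their group. The fitted log2 change of 3.04 ± 0.74 became 1.82 without HDM library 5 and 3.81 without saline library 5, and stayed called both times (edgeR adjusted p = 0.0121 and 0.000964). Col6a4 and Col6a6 were not called in either comparison. Col6a4 stood at 14.7 CPM in wild-type saline library 4 against 0.531 to 1.41 CPM in the other 4, and without that library its wild-type log2 change went from 0.08 to 2.12 (edgeR adjusted p = 0.00915). Without knockout-labelled saline library 4, at 5.74 CPM, its knockout-labelled change went from 1.00 to 2.30 (edgeR adjusted p = 0.023).

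The FACITs split in direction. Col22a1, found at tissue junctions such as that of muscle and tendon, rose from a low level: 0.761, 0.466, 0.372, 0.598 and 0.424 CPM with saline and 1.05, 1.41, 1.94, 1.08 and 0.495 CPM with HDM in wild type, where HDM library 5 fell within the saline range. In knockout-labelled mice it measured 0.478, 0.516, 0.0879, 0.478 and 0.182 CPM against 1.17, 1.56, 2.09, 1.60 and 1.29 CPM, without overlap. The rise was 2.25-fold (log2 1.17 ± 0.39, edgeR adjusted p = 0.0275) and 4.38-fold (2.13 ± 0.39, edgeR adjusted p = 0.000157). The wild-type call was lost when any of wild-type saline libraries 2, 3 and 5 or HDM libraries 2 and 3 was left out (edgeR adjusted p from 0.055 to 0.079), without the adipose-rich libraries (0.165) and with limma voom (adjusted p = 0.0566).

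Col12a1, which bridges type I fibrils and other matrix molecules, fell in both genotypes. It measured 147, 104, 165, 151 and 158 CPM with saline and 80.9, 61.0, 54.1, 57.4 and 102 CPM with HDM in wild type, and 144, 112, 119, 146 and 142 CPM against 51.0, 91.9, 102, 67.5 and 47.7 CPM in knockout-labelled mice. HDM libraries lay below saline libraries in both genotypes. Of all genes, 5.64% and 21.8% were lower without overlap. The fall was 2.04-fold (log2 -1.03 ± 0.21, edgeR adjusted p = 0.00123) and 1.84-fold (-0.88 ± 0.21, edgeR adjusted p = 0.00154). Col20a1 fell only narrowly past the threshold in knockout-labelled mice (log2 -0.58 ± 0.24, edgeR adjusted p = 0.0474). That call was lost without any 1 of the knockout-labelled HDM libraries, of knockout-labelled saline libraries 1, 2, 4 and 5, of wild-type saline library 3, or of wild-type HDM libraries 1, 2, 3 and 5 (edgeR adjusted p from 0.0536 to 0.225). It was also lost with limma voom (adjusted p = 0.0985), with the replicate block (0.062), with both other filters on low counts (0.0614 and 0.0655), without the ribosomal transcript Rn45s (0.052) and without the adipose-rich libraries (0.0822). Col14a1, Col16a1, Col19a1 and Col9a3 were not called in either comparison.

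The transmembrane collagens had no member that rose. Col23a1, expressed in epithelia, measured 84.7, 93.2, 106, 77.9 and 103 CPM with saline and 53.2, 42.8, 36.4, 34.6 and 69.8 CPM with HDM in wild type, without overlap. In knockout-labelled mice it measured 105, 125, 96.1, 91.3 and 96.5 CPM against 56.7, 72.6, 70.4, 54.5 and 40.1 CPM, also without overlap. It fell 1.97-fold (log2 -0.97 ± 0.18, edgeR adjusted p = 0.000548) and 1.75-fold (-0.80 ± 0.18, edgeR adjusted p = 0.000931). Col13a1, a collagen of cell adhesion sites, fell 1.83-fold and 1.97-fold. Col17a1, the hemidesmosome collagen of basal epithelium, fell in knockout-labelled mice (log2 -1.19 ± 0.32, edgeR adjusted p = 0.00447), where HDM libraries 1 to 4 lay at 1.71 to 3.25 CPM and HDM library 5 at 8.13 CPM, inside the saline range of 7.34 to 9.52 CPM. That library had the highest summed level of 4 basal and squamous epithelial markers, 59.6 CPM, against a group median of 0.992 CPM. Its part in the value was not tested. Col25a1 was not called.

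Of the remaining members, the network collagen Col8a2, known from endothelial basement membranes, fell 1.70-fold in wild type and 2.22-fold in knockout-labelled mice (edgeR adjusted p = 0.000956 and 5.66e-06). Its partner Col8a1 rose 1.45-fold in knockout-labelled mice (edgeR adjusted p = 0.0163), a call lost without HDM library 3 or 4 (edgeR adjusted p = 0.0538 and 0.0638), and measured log2 0.05 in wild type. Col7a1, the anchoring fibril collagen, rose 1.70-fold in knockout-labelled mice and was just outside the threshold in wild type (log2 0.49, edgeR adjusted p = 0.0527). Col18a1, Col10a1, Col26a1 and Col28a1 were not called. In all, 10 collagens were called in both genotypes, and 0 were called in opposite directions. Col3a1, Col5a2, Col24a1, Col6a5 and Col22a1 were higher, and Col4a6, Col12a1, Col13a1, Col23a1 and Col8a2 were lower. Of all genes, 30.0% were called in wild type and 51.9% in knockout-labelled mice. The share of all genes called in both was not counted, so the 10 are not a result about collagens as a family.

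Tissue other than lung parenchyma was present in part of the libraries and moved with some collagens. The adipocyte hormone gene Adipoq reached 85.1 to 169 CPM in 5 libraries (wild-type saline 2 and 4, wild-type HDM 2 and 4, knockout-labelled HDM 5) and at most 27.7 CPM in the others. The summed level of 7 adipose markers, none at 0 in any group, was 827 to 1562 CPM in these 5 and 10.4 to 269.8 CPM in the rest. In all 5, Col15a1 and Col6a6 were above every library of the same group that was not among these 5. Col4a3, Col4a4 and Col4a5 were below every such library. Col6a5 and Col5a3 were above every such library in 4 of the 5. The median log2 differences were 2.26 for Col6a6, 1.58 for Col6a5, 1.02 for Col15a1 and 0.755 for Col5a3. Col15a1, a multiplexin of vessel, muscle and fat basement membranes, measured 20.6, 82.4, 31.6, 47.5 and 19.6 CPM with saline and 38.5, 81.0, 55.1, 75.4 and 36.9 CPM with HDM in wild type, and 24.1, 22.2, 21.9, 28.7 and 23.8 CPM against 31.3, 39.8, 39.5, 42.6 and 95.5 CPM in knockout-labelled mice. It was called higher in knockout-labelled mice (log2 1.04 ± 0.37, edgeR adjusted p = 0.0257), and not without HDM library 5 alone (0.67, edgeR adjusted p = 0.114). Without all 5 adipose-rich libraries it was called there (0.65, edgeR adjusted p = 0.00183). In wild type it was not called with all libraries (0.51, edgeR adjusted p = 0.322) and was called without the 5 libraries (0.85, edgeR adjusted p = 0.00484). Other marker lists moved too. In wild type and knockout-labelled mice, 3 and 3 of 3 club cell markers, 1 and 6 of 7 mesothelial markers and 3 and 2 of 5 pericyte markers were lower. Among all genes the shares called lower were 16.5% and 25.7%. The pericyte marker Rgs5 was higher in knockout-labelled mice, and among 5 alveolar type 2 markers 1 was higher in wild type and 3 were lower in knockout-labelled mice. The summed level of 6 liver genes was 31.9 to 104 CPM in knockout-labelled HDM libraries and at most 6.99 CPM elsewhere, that of 6 skeletal muscle genes reached 3107 CPM in a single wild-type HDM library (number 2), 4 nerve genes spanned 72.6 to 181 CPM, and 5 bone genes reached at most 0.570 CPM. Their part in the collagen values was not tested. Without the 5 adipose-rich libraries 10 collagens were called in wild type, 8 of them among the 11 above, and 20 in knockout-labelled mice, 19 of them among the 20 above. The shares of all genes called without these libraries were 21.4% and 54.9%.

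**Figure D5:**
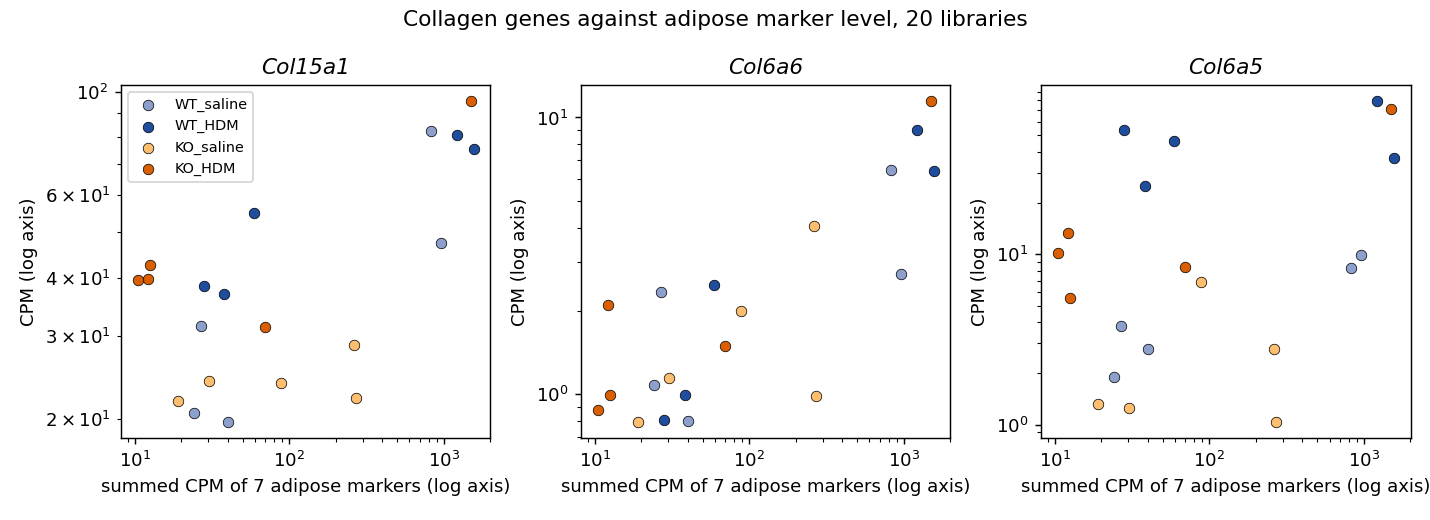
Level in CPM of Col15a1, Col6a6 and Col6a5 against the summed CPM of 7 adipose markers in each of the 20 libraries, coloured by group, on log axes. The 5 libraries at 827 CPM or more of adipose markers hold the highest Col15a1 and Col6a6 values of their groups. In 4 of these 5, Col6a5 is also above every library of its group outside the 5. Col6a5 is above 25 CPM in all 5 wild-type HDM libraries.

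Between the genotype labels, saline libraries gave 0 called collagens of 40 with edgeR, beside 0.908% of all genes (0.593% higher, 0.315% lower), and 13 at an unadjusted p under 0.05, beside 15.7% of all genes, all 13 with lower values in knockout-labelled mice. DESeq2 called 3 (Col10a1, Col11a2 and Col27a1, all lower), beside 2.02% of all genes, and limma voom 0. All 3 were highest in wild-type saline library 2, which held the cartilage transcripts. They measured 36.5, 7.15 and 32.1 CPM there, and 6.85, 3.42 and 24.2 CPM in library 1, the next highest. DESeq2 was not run without library 2. Of the 40 tested collagens, 32 had log2 values below 0, while 44.8% of all genes had values above 0. The fibrillar median was -0.53 on the log2 scale; Col1a1 measured -0.51 ± 0.24, Col3a1 -0.56 ± 0.22 and Col5a2 -0.36 ± 0.16, none called. Wild-type saline libraries 2 and 3 held the highest Col1a1, Col1a2, Col3a1, Col5a1 and Col5a2 levels of all 10 saline libraries.

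Under HDM, 1 collagen of 40 differed between the labels, beside 6.67% of all genes (4.79% higher, 1.88% lower). It was Col20a1, a FACIT of low level, at 2.29, 2.24, 3.18, 3.46 and 3.02 CPM in wild type and 1.76, 1.70, 1.60, 1.27 and 1.45 CPM in knockout-labelled mice. The groups did not overlap, as for 2.21% of all genes in the lower direction, and the difference was log2 -0.86 ± 0.24 (edgeR adjusted p = 0.0351). It was lost without any of wild-type HDM libraries 3, 4 and 5 or knockout-labelled HDM libraries 2 to 5 (edgeR adjusted p from 0.0546 to 0.107). It was also lost with limma voom (adjusted p = 0.0513), which called Col6a5 instead, and without the 5 adipose-rich libraries (edgeR adjusted p = 0.108), where Col17a1 and Col6a5 were called. Without knockout-labelled HDM library 5, Col6a5 (log2 -2.36, edgeR adjusted p = 0.0153) and Col17a1 (-0.96, edgeR adjusted p = 0.0199) were called lower. Col24a1 did not differ by the test (log2 -0.58 ± 0.30, edgeR adjusted p = 0.276).

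The difference of the HDM responses, tested as an interaction, called 0 of 40 collagens with edgeR, 0 with DESeq2 and 0 with limma voom, beside 1.24% of all genes with edgeR. At an unadjusted p under 0.05 edgeR gave 8, beside 15.9% of all genes, all 8 with the larger value in knockout-labelled mice: Col1a1 (1.02 ± 0.34, edgeR adjusted p = 0.144), Col1a2, Col3a1, Col5a1, Col5a2, Col6a3, Col10a1 and Col18a1. So the calls of Col1a1, Col1a2 and Col5a1 in one genotype only do not show that the response differed. The 2 responses of Col24a1 differed by -0.05 ± 0.56 on the log2 scale, an estimate too wide to show that they were alike.

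Of 22 genes of collagen folding and modification, 2 rose and 5 fell in wild type, and 2 rose and 8 fell in knockout-labelled mice, beside 30.0% and 51.9% of all genes called in either direction. P4ha3, a prolyl hydroxylase subunit, rose from 1.09 ± 0.18 (SD, n = 5) to 2.64 ± 0.49 CPM in wild type and from 1.06 ± 0.21 to 5.35 ± 1.25 CPM in knockout-labelled mice (edgeR adjusted p = 0.000113 and 3.43e-08), and was higher in knockout-labelled than wild-type HDM libraries (log2 1.01 ± 0.18, edgeR adjusted p = 0.00233). Colgalt2, a collagen galactosyltransferase, fell in both (log2 -1.25 and -1.25). Serpinh1, the collagen chaperone HSP47, was not called, at 219 ± 26.5 against 189 ± 24.7 CPM in wild type and 199.7 ± 25.0 against 187 ± 35.0 CPM in knockout-labelled mice. Of 7 tested propeptide-removal genes, 0 rose and 3 fell in wild type and 2 rose and 2 fell in knockout-labelled mice. The same shares of all genes, 30.0% and 51.9%, stand beside these counts. Pcolce2, an enhancer of procollagen cleavage, went from 234 ± 46.9 to 85.4 ± 37.9 CPM and from 247 ± 19.5 to 62.0 ± 17.0 CPM (edgeR adjusted p = 0.000239 and 2.86e-06).

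Of 7 cross-linking genes, 1 rose and 1 fell in wild type, and 2 rose and 2 fell in knockout-labelled mice. Of all genes, 30.0% and 51.9% were called in either direction. Lox, the lysyl oxidase, rose in both genotypes (log2 0.64 and 1.00), and Loxl2 rose in knockout-labelled mice. The type IV cross-linker Pxdn fell in both (log2 -0.58 and -0.58). Tgm2 went from 536 ± 29.9 to 337 ± 46.3 CPM in knockout-labelled mice. Of 8 collagen-cleaving enzymes, 5 rose in wild type and 7 in knockout-labelled mice, beside 13.6% and 26.2% of all genes, and 0 fell. Mmp13, an interstitial collagenase, went from 0.706 ± 0.217 to 14.5 ± 7.21 CPM in wild type and from 0.550 ± 0.197 to 2.49 ± 0.713 CPM in knockout-labelled mice, and was lower in knockout-labelled than in wild-type HDM libraries (log2 -2.54 ± 0.37, edgeR adjusted p = 0.000328). Ctsk, the lysosomal collagenase cathepsin K, went from 18.9 ± 3.56 to 148 ± 44.6 CPM and from 22.9 ± 5.90 to 102 ± 16.9 CPM. The summed level of 3 leukocyte markers was 504 to 1379 CPM with saline and 754 to 1342 CPM with HDM in wild type, and 625 to 871 CPM against 1060 to 1596 CPM in knockout-labelled mice; its part in the enzyme values was not tested.

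Of 11 fibril-associated proteoglycans and organisers, 0 rose and 3 fell in wild type (Ogn, Prelp and Tnxb), beside 30.0% of all genes called in either direction. In knockout-labelled mice 1 rose and 6 fell, beside 51.9% of all genes. The one that rose was Aspn, asporin, which binds type I collagen (log2 1.27 ± 0.20), and its response was larger than in wild type by test (2.30-fold larger, with an SE of 0.28 on the log2 scale, edgeR adjusted p = 0.0426). That interaction was lost without the adipose-rich libraries (0.146) and without any of wild-type saline libraries 1 and 2, wild-type HDM libraries 1 to 4, knockout-labelled saline libraries 2, 3 and 5 or knockout-labelled HDM libraries 2 to 5 (edgeR adjusted p from 0.0512 to 0.0972). Of 10 collagen receptors and uptake genes, 5 fell in wild type and 4 in knockout-labelled mice, beside 16.5% and 25.7% of all genes. In each genotype 1 rose, beside 13.6% and 26.2% of all genes. It was Lair1, an inhibitory collagen receptor of leukocytes, with log2 changes of 0.56 and 1.86 and an interaction of 1.30 ± 0.23 (edgeR adjusted p = 0.00871). Ddr2 and the platelet receptor Gp6 fell in both, as did Itga1 and Ddr1, whose calls were marginal in knockout-labelled mice for Itga1 (edgeR adjusted p = 0.0424) and in wild type for Ddr1 (0.044). Of 19 genes of TGF-beta signalling, the main inducer of fibrillar collagen, 3 rose and 7 fell in wild type. In knockout-labelled mice 6 rose and 8 fell. The shares of all genes called in either direction were 30.0% in wild type and 51.9% in knockout-labelled mice. The receptor Tgfbr1 rose (log2 0.96 and 1.66) as did the latent binding protein Ltbp2 (0.94 and 1.68), while Ltbp4 (-1.19 and -1.81) and the co-receptor Tgfbr3 (-1.16 and -1.49) fell.

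The genes with log2 levels most like Col1a1 across the 20 libraries, by Pearson's r, were Fbn1 (0.930), Wnt5a (0.926), Ssc5d (0.918), Eln (0.912) and Sfrp1 (0.911). For Col3a1 they were Igf1 (0.947), Slc39a14 and Sh3pxd2b (both 0.944), Eln (0.941) and Creb5 (0.932). For Col4a3 they were Ptprg (0.972), Bicd2, Ndst1, Lama3 and Cd93. These values rest on the same libraries and include the treatment effect, and they are given as a description. The lists of Col1a1 and Col3a1 share Eln, the elastin gene.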

How the data were processed

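RNA from whole lungs was sequenced in 20 libraries. Per the labels' protocols, messenger RNA was selected with oligo-dT and libraries keep the strand; depletion of rRNA is named in the same protocol. The tools were Bowtie2 2.1.0 and RSEM 1.2.15, per the submitters' processing notes, and the build named there, hg38, is human although the symbols are mouse, so the build is not known and no coordinates come from the table. The authors deposited RSEM expected counts per gene, not normalized (17.7% of values were not whole). RSEM shares ambiguous reads among genes, which can matter for related chains. Over the 20 libraries the expected counts summed to 1237.0 for Col6a4, 6822.55 for Col6a5 and 1111.45 for Col6a6. How far sharing affected them was not tested. Whether counting used the strand is not given in the sources used here, so overlapping antisense genes cannot be told apart.

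Expected counts were rounded, filtered with filterByExpr by group (16193 of 24054 genes left) and scaled by TMM. The test, run with edgeR 4.0.16 under R 4.3.3, was a robust quasi-likelihood model with 1 mean per group over all 20 libraries and 16 residual degrees of freedom. Genes with a Benjamini-Hochberg adjusted p under 0.05 over all tested genes are called. CPM are TMM-scaled; log2 CPM used a prior count of 2. Levels of different genes were compared per kilobase of the APPRIS-principal transcript in GENCODE M21. Alternatives were DESeq2 1.42.0, limma 3.58.1 (voom), other scalings, filters, thresholds, a replicate block and left-out libraries. The fibrillar types I, III and V, all type IV chains and up to 6 called collagens per comparison with the largest change are given per library; the 6 largest called genes per pathway list could be named. Lists, members and alternatives were chosen with earlier results of these data known. Nothing in the labels says which libraries share a cage or day, and p-values measure the spread between these mice. The genes most like Col4a1 are not reported here.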

Additional observations from a re-analysis of the deposited data

Results flagged for a closer look

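In 8 of 160 checks of a tested collagen gene within a group of 5, 1 library lay far from the other 4 relative to the range of the group; chance flags about 1 in 20 such groups, which is the share seen. Knockout-labelled HDM library 5 was high for Col15a1 (95.5 CPM, the next at 42.6) and Col10a1 (9.16 CPM, the next at 4.75), and is 1 of the 5 libraries rich in adipose markers. Wild-type saline library 2, which held the cartilage transcripts, was low for Col12a1 (104 CPM, the next at 147) and high for Col19a1 (1.71 CPM, the next at 0.460). Wild-type saline library 4 was high for Col6a4 (14.7 CPM, the next at 1.41) and low for Col8a1 (12.6 CPM, the next at 18.6). Knockout-labelled saline library 4 was also high for Col6a4 (5.74 CPM, the next at 0.861). Knockout-labelled saline library 1 was high for Col7a1 (9.90 CPM, the next at 6.2). What set these libraries apart was not tested.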

How the results depend on the processing

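No collagen call changed direction under any of the alternatives run. The count of 11 called in wild type stayed between 8 (adjusted p under 0.01) and 14 (DESeq2), and between 9 and 13 when 1 library was left out. Of all genes, 17.0% were called at the former setting, 32.7% with DESeq2, and 22.6% to 35.3% with 1 library left out. The 20 in knockout-labelled mice stayed between 16 (adjusted p under 0.01) and 26 (the 10 compared libraries alone), and between 18 and 23 with 1 library left out. The shares of all genes there were 39.2%, 58.7% and, with 1 library left out, 46.7% to 53.9%. For the knockout label under saline, 0 became 3 with DESeq2, 1 without the adipose-rich libraries, and 0 to 2 with 1 library left out. For the knockout label under HDM, 1 became 0 at an adjusted p under 0.01, 2 without the adipose-rich libraries (Col17a1 and Col6a5, not Col20a1), and 0 to 2 with 1 library left out. Beside these stood 2.46%, 7.34% and 3.26% to 8.46% of all genes. The interaction stayed at 0 in each, beside 0.198% (adjusted p under 0.01) to 3.75% (DESeq2) of all genes. With the replicate block the counts were 13, 21, 0, 1 and 0, beside 31.2%, 53.0%, 0.988%, 6.47% and 1.52% of all genes. No pairing by title number ran through all comparisons. Deviations of same-numbered libraries correlated from -0.429 to 0.506. A library correlated best with its own number in 1, 2, 3 and 0 of 5 cases. The 3 of 5 came from the genotype labels under saline, where same-numbered libraries correlated from -0.0127 to 0.478, so a partial match there is not excluded. In wild type Col6a2, Col7a1 and Col17a1 (adjusted p = 0.0583, 0.0527 and 0.0667) passed under DESeq2 and voom and without several single libraries, and Col15a1 (0.94, adjusted p = 0.0443) without saline library 2. In knockout-labelled mice Col10a1, Col11a2, Col18a1, Col27a1 and Col6a1 passed without single libraries (adjusted p from 0.00772 to 0.0446). Under saline, Col7a1, Col11a2 and Col27a1 were called lower without wild-type library 4 or 5 or knockout-labelled library 1 (adjusted p from 0.0117 to 0.0404). Leaving out the ribosomal transcript Rn45s (12560 to 60750 CPM) gave 13 and 19 calls in the HDM comparisons, beside 29.9% and 52.0% of all genes. Genes under about 1 CPM, such as Col9a1, rest on few counts a library.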
